A study of Homo sapiens with 12 samples.

Results

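Hormone-treated HaCaT cells labelled as knockout for VDR were compared with hormone-treated wild type HaCaT cells across all genes counted. HaCaT is an immortalised line of human keratinocytes, and VDR encodes the nuclear receptor for vitamin D. The comparison uses 6 of the 12 libraries of the series, 3 of the VDR knockout genotype and 3 of the wild type. All 6 were made from total RNA of cells exposed for 8 h to 1,25(OH)2D3, the form of vitamin D that binds the receptor, and all came from cultures in DMEM with serum. The other 6 libraries are of the same genotypes without the hormone, and enter only the estimate of spread and, for a few genes, as levels. The labels place the replicates on a 6-well plate, so the p-values measure the spread between wells. The sources used here do not give the dose of the hormone, its vehicle, how and where VDR was edited, or whether the knockout line is 1 clone. What belongs to the loss of the receptor and what to the knockout line itself therefore cannot be told apart.

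The vitamin D receptor is a transcription factor that is switched on by its hormone. It binds DNA together with a retinoid X receptor, at response elements made of a repeated half-site, and recruits coactivators or corepressors. In the epidermis the hormone is known for restraining growth and for promoting differentiation of keratinocytes, the cells that rise from a basal layer anchored by hemidesmosomes and end as cornified envelopes. Its strongest known target is CYP24A1, the enzyme that breaks the hormone down.

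Total counts were 13134183 to 13888632 in the treated wild type libraries and 11830811 to 12774091 in the treated knockout libraries. The first principal component of log2 CPM (counts relative to the library's total) held 87% of the variance among the 6 libraries and separated the genotypes, with the second at 4.1%. Across genes, as a description, Spearman's rank correlation was 0.9926 to 0.9957 within a group and 0.8955 to 0.9098 between groups. No library stood with the other genotype. Markers of keratinocytes were counted in every library, and the summed level of the 10 listed ones was 1470 to 1660 CPM in the knockout against 2970 to 3030 CPM in the wild type. CPM of single genes are scaled by the trimmed mean of M-values (TMM). A log2 difference is treated knockout minus treated wild type, ± SE, and each adjusted p is from edgeR's quasi-likelihood test with Benjamini-Hochberg adjustment over all genes tested, with n = 3 libraries a group. A gene was called below an adjusted p of 0.05.

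VDR itself was counted in all libraries, at 74.6, 70.9 and 67.4 CPM in the treated wild type and at 81.7, 80.5 and 86.3 CPM in the treated knockout. Its RNA was 1.17-fold higher in the knockout (log2 difference 0.22 ± 0.07, adjusted p = 0.00796), a call that was lost without treated wild type replicate 3, when the difference was 0.17. The difference was 0.33 with library size as the scaling, and 0.50 with offsets for transcript GC content and gene span, described near the end. Untreated, VDR RNA stood at 103.3 CPM in wild type and 77.6 CPM in the knockout. The receptor protein was not measured, and an edit that stops the protein need not lower the RNA. VDR lies on chromosome 12, from 47841537 to 47943048, on the minus strand (GRCh38, GENCODE v29).

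CYP24A1 stood at 1705, 1718 and 1606 CPM in the wild type libraries and at 12.13, 12.48 and 12.04 CPM in the knockout libraries. That was 137-fold lower in the knockout (log2 difference -7.10 ± 0.17, adjusted p = 6.61e-13), with each group within a narrow range. Without the hormone it was at 48.0 CPM in wild type and 16.9 CPM in knockout cells, so the treated knockout level lay below both. The gene is on chromosome 20, from 54153449 to 54173973. In a bulk culture, fewer cells holding an RNA and less of it per cell cannot be told apart.

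THBD encodes thrombomodulin, a surface receptor for thrombin and a known target of the hormone. It was at 35.6, 45.2 and 40.1 CPM in the wild type and at 5.88, 6.16 and 9.11 CPM in the knockout, 5.72-fold lower (log2 difference -2.52 ± 0.15, adjusted p = 1.67e-10). MMP10, a secreted protease of the stromelysin type made by migrating keratinocytes, was scarce in both groups. It reached 2.37, 3.51 and 2.03 CPM in the wild type, while the knockout libraries held 0.151, 0 and 0 CPM. The sums were 102 counts against 2, a ratio of 46.4 with a 95% exact (Clopper-Pearson) interval of 12.5 to 389 that covers counting error only (log2 difference -5.41 ± 0.56, adjusted p = 1.56e-07). With so few knockout counts its size was poorly fixed, at -8.11 without treated knockout replicate 1 and at -1.73 in limma on log2(CPM + 1). Every wild type library was above every knockout library for CYP24A1, THBD and MMP10. Such absence of overlap, in either direction, was found for 80.9% of all genes tested.

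**Figure D1:**
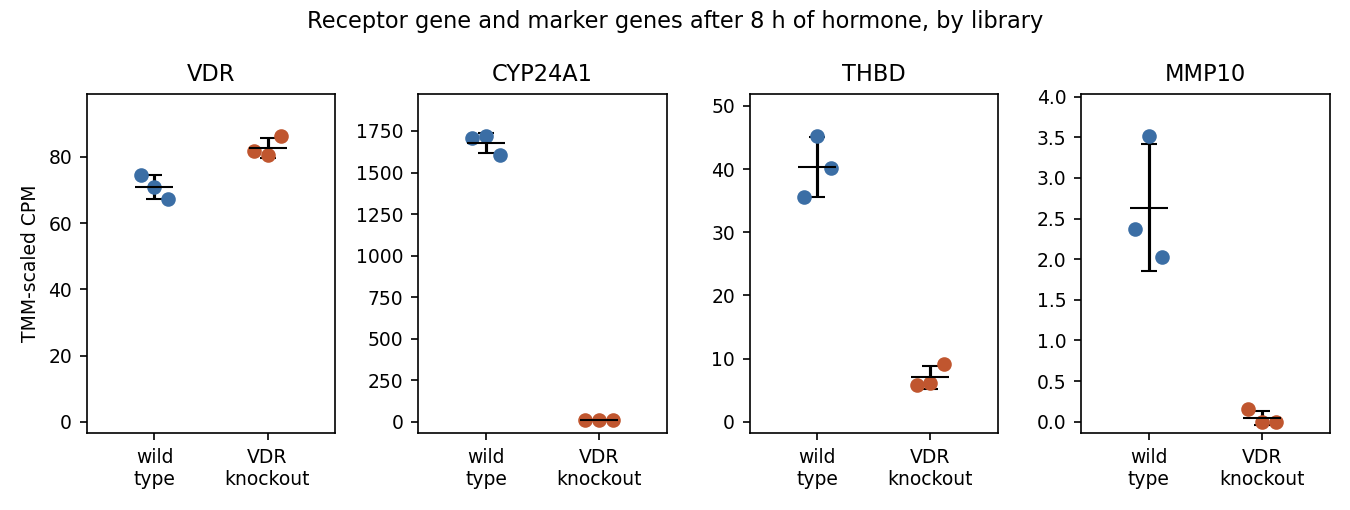
TMM-scaled CPM (vertical axes, a separate linear scale for each gene) of VDR, CYP24A1, THBD and MMP10 in the 3 wild type and 3 VDR knockout libraries after 8 h of hormone. Points are libraries, and bars give the mean and SD. The wild type points of CYP24A1 lie between 1606 and 1718 CPM and the knockout points between 12.04 and 12.48 CPM, while those of VDR lie close together in both groups.

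The bases upstream of MMP10 are shown because it is the marker with an entry in the RefSeq promoter table used (GRCh38.p14). The 250 bases before its start, chr11:102780629-102780878 on the minus strand, read 5′ to 3′ with the closest match to the DR3-type vitamin D response element in capitals.
MMP10: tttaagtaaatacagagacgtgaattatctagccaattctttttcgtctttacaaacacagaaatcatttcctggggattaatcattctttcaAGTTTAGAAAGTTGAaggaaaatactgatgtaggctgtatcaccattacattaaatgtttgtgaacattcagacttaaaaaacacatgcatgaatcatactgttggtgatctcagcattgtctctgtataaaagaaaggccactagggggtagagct
This match starts 157 bases before the start and has 1 mismatch over the 12 defined positions of the 15-base element. On either strand, 4.44% of 35116 windows of this length held a match with at most 1 mismatch and 0.202% held one with none. The window of TRIM31, a gene higher in the knockout and described below, also held a match with 1 mismatch, starting 93 bases before the gene. Each match describes letters only and is not evidence of binding.

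Over all genes, the difference between the genotypes after hormone was broad and nearly balanced. Of 14676 genes tested, 5640 (38.4%) were higher and 5493 (37.4%) lower in the knockout, which makes 75.9% called in either direction, and 3543 were not called. At least a 2-fold difference was reached by 1922 called genes (13.1%) that were higher and 2034 (13.9%) that were lower, and at least 8-fold by 118 and 71. The median log2 difference was 0.02 over all genes tested, and the median size among called genes was 0.77. The 3 libraries of each group did not overlap for 80.9% of genes tested, so that absence of overlap alone says little about a single gene. Scaled by library size alone, the median of all genes moved to 0.13, and the calls were 6394 higher and 4864 lower. Most calls were thus of less than 2-fold, and shares of calls below are read against these figures.

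**Figure D2:**
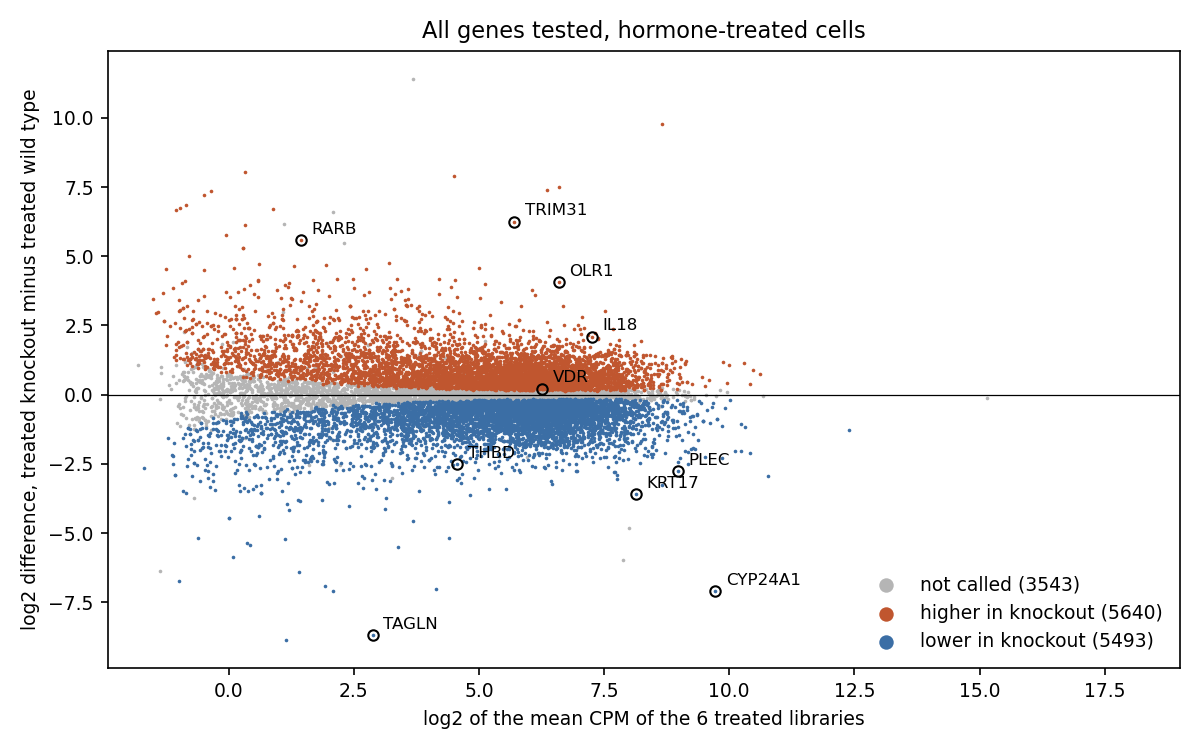
Log2 difference between treated knockout and treated wild type (vertical axis) against the log2 of the mean CPM of the 6 treated libraries (horizontal axis), with 1 point for each of 14676 genes tested. Called genes that were higher (5640) and lower (5493) fill both sides of 0 at all levels, CYP24A1 lies apart at high abundance, and VDR lies near 0.

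The 15 largest falls were taken among called protein-coding genes of at least 5 CPM in the wild type. TAGLN, the actin-binding protein transgelin, was at 15.4, 13.9 and 14.9 CPM in the wild type and at 0.0753, 0 and 0 CPM in the knockout, 573 counts against 1 (ratio 522, 95% exact interval 93.3 to 2.06e+04). DIAPH2, a formin that nucleates actin filaments, gave 327 counts against 2 (ratio 149, 40.9 to 1230), and WNK2, a kinase of ion transport, 292 against 2 (ratio 133, 36.5 to 1100). These genes were all but absent from the knockout libraries. SHANK2, a scaffold protein, was at 17.98, 22.0 and 21.4 CPM against 0.226, 0.575 and 0.554 CPM, 44.9-fold lower (log2 difference -5.49 ± 0.22, adjusted p = 3.93e-12). AKAP12, which anchors protein kinase A, was at 40.3, 38.4 and 40.8 CPM against 3.01, 2.05 and 3.01 CPM, 14.7-fold lower (log2 difference -3.88 ± 0.20, adjusted p = 1.66e-10). For both, the libraries of each genotype lay close together and far from those of the other. IL1RL1, the receptor of interleukin 33, varied more, at 38.9, 64.9 and 19.8 CPM against 0.979, 0.985 and 1.43 CPM (log2 difference -5.18 ± 0.65, adjusted p = 8.15e-05).

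TNFRSF6B, a decoy receptor for Fas ligand, was at 16.5, 16.4 and 16.8 CPM in the wild type and 0.979, 1.23 and 0.634 CPM in the knockout (log2 difference -4.12 ± 0.23, adjusted p = 9.18e-11). The adaptor gene SH2D5 (-4.55 ± 0.25), the acid-sensing channel gene ASIC2 (-3.82 ± 0.25) and the matrix protease gene ADAMTS15 (-3.72 ± 0.18) were lower as well. SPRR2D and MFNG, also of this group, are described with their gene lists. ARHGEF5, a guanine nucleotide exchange factor, met the rule through 1 library. It read 104, 0.936 and 1.13 CPM in the wild type and 0.0753, 0.0821 and 0.634 CPM in the knockout, and has a near-identical copy (log2 difference -7.02 ± 2.50, adjusted p = 0.0309). It was not called without treated wild type replicate 1 (-1.94) or without any 1 treated knockout library. Nor was it called in limma (-2.56) or with the 6 treated libraries alone (-7.02).

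The 15 largest rises were taken in the same way, by the level in the knockout. TRIM31, an E3 ubiquitin ligase, was at 1.498, 1.48 and 1.05 CPM in the wild type and 108.5, 108 and 92.4 CPM in the knockout, 76.2-fold higher (log2 difference 6.25 ± 0.22, adjusted p = 3.20e-11). OLR1, a scavenger receptor for oxidised low-density lipoprotein, rose from 10.1, 12.3 and 10.3 CPM to 176, 196 and 175 CPM, 16.8-fold (log2 difference 4.07 ± 0.09, adjusted p = 4.18e-15). COL8A1, a collagen chain, was at 2.21, 1.79 and 1.80 CPM against 32.5, 39.2 and 33.2 CPM (log2 difference 4.17 ± 0.14, adjusted p = 1.06e-12). In these 3 genes the lowest knockout library exceeded the highest wild type library by more than 10-fold. RBMS3, an RNA-binding protein, was at 11.4, 10.9 and 9.09 CPM against 116, 138 and 131 CPM (log2 difference 3.62 ± 0.14, adjusted p = 5.03e-12). VAV3, a guanine nucleotide exchange factor, was at 5.28, 5.70 and 4.88 CPM against 62.8, 67.8 and 47.5 CPM (log2 difference 3.49 ± 0.26, adjusted p = 2.85e-07).

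KYNU, an enzyme of tryptophan breakdown (4.18 ± 0.29), ANKRD22 (4.19 ± 0.16), the bone morphogenetic protein gene BMP3 (3.86 ± 0.29) and GFPT2, an enzyme of the hexosamine pathway (3.73 ± 0.18), were higher too. So were the endosomal sodium-proton exchanger gene SLC9A9 (3.63 ± 0.18), NRG4, a ligand of the receptor ERBB4 (3.53 ± 0.21), and VEPH1 (3.46 ± 0.20). The histone genes HIST2H2AA4 (7.50 ± 1.66) and HIST2H3A (7.40 ± 1.65) headed the list by size and were the least even. Their knockout libraries read 174, 403 and 2.14 CPM and 159, 328 and 1.66 CPM, against at most 1.41 and 1.18 CPM in the wild type. Both have near-identical copies, between which counting can split reads. Apart from these, 12 tested genes held no more than 2 counts in 1 treated library while a fellow library of their group held 50 or more.

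**Figure D3:**
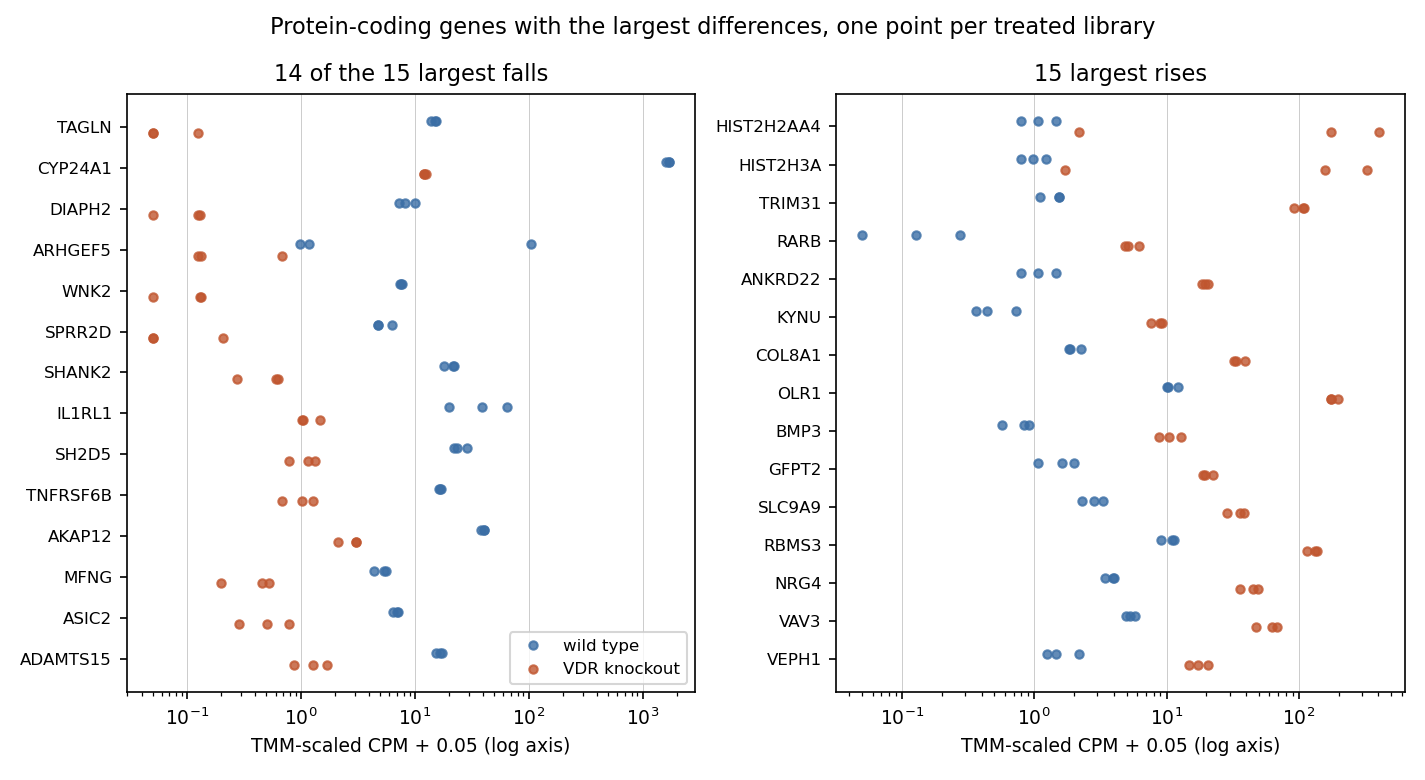
TMM-scaled CPM plus 0.05 (log axis) of 14 of the 15 protein-coding genes with the largest falls (left) and the 15 with the largest rises (right), with 1 point for each treated library. Wild type and knockout points are clearly apart for most genes, whereas ARHGEF5, HIST2H2AA4 and HIST2H3A have 1 library far from the other 2 of its group.

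Gene lists group the rest of the genes. For each list the text gives how many of its genes were tested, how many were called each way, and the median log2 difference, beside 38.4% higher, 37.4% lower and a median of 0.02 over all genes tested. List members that were not tested were either not in the count table or set aside for low counts. Transcript GC content moved with the difference, as described near the end. The median with offsets for transcript GC content and gene span is therefore given where it departs by about 1.5-fold in level or changes sign. Among medians that shrank by less were those of ATF4 genes (-0.94 to -0.45) and EGF receptor and immediate early genes (-0.73 to -0.38). Junction genes (-0.54 to -0.31), Wnt genes (-0.46 to -0.28) and metallothionein genes (-0.32 to -0.10) shrank likewise. Among those that grew were retinoid genes (0.32 to 0.53) and hedgehog genes (0.12 to 0.33).

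**Figure D4:**
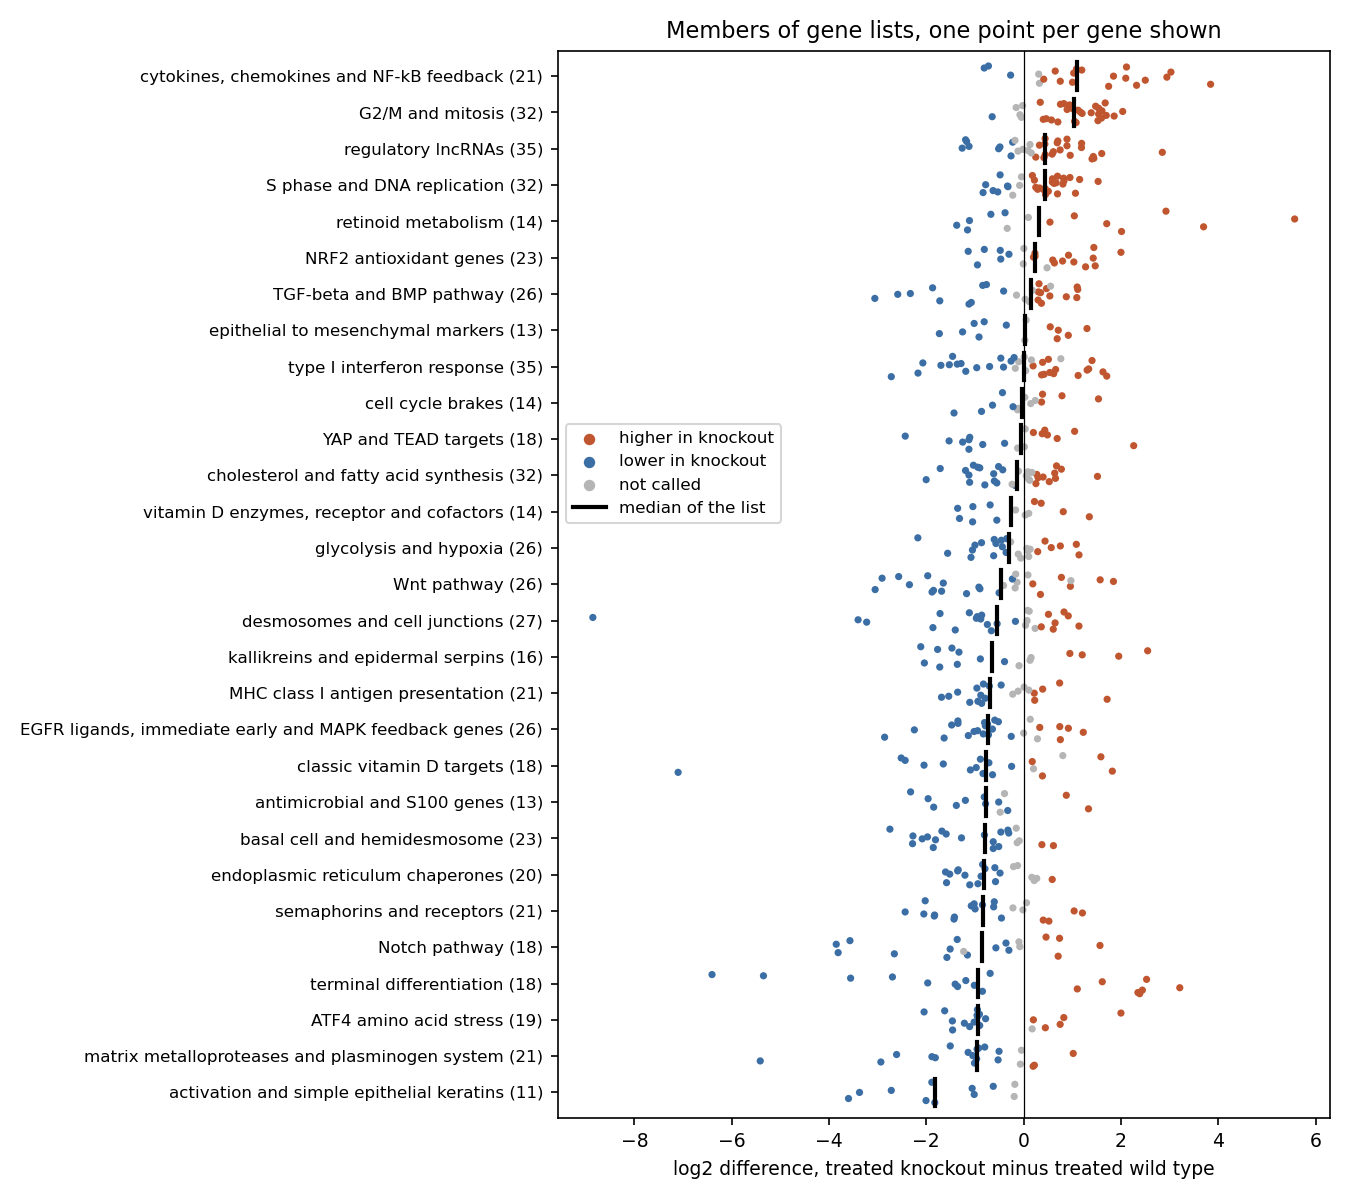
Log2 difference between treated knockout and treated wild type (horizontal axis) for members of 29 gene lists, ordered by the median of the list (black bars), with the number of genes tested in brackets. Activation keratins, matrix proteases and basal cell genes lie mostly left of 0, and cytokine and G2/M genes mostly right of it.

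Among known targets of the hormone in various cells, 18 of 30 listed genes were tested, of which 12 were lower and 4 higher in the knockout, with a median of -0.77. The list holds 2 of the markers given for the comparison, CYP24A1 and THBD. IGFBP3, which binds insulin-like growth factors, was at 539, 498 and 577 CPM in the wild type and 139, 125 and 127 CPM in the knockout, 4.13-fold lower (log2 difference -2.05 ± 0.14, adjusted p = 4.53e-09). EFTUD1, a GTPase of ribosome maturation now named EFL1, was 2.13-fold lower (-1.09 ± 0.09, adjusted p = 8.48e-09). DUSP10, a phosphatase of stress kinases, went the other way, at 86.2, 92.4 and 81.6 CPM against 302, 326 and 294 CPM (log2 difference 1.82 ± 0.08, adjusted p = 1.22e-11). The calcium channel gene TRPV6 was higher at low levels, 0.315, 0.702 and 0.376 CPM against 1.66, 1.07 and 1.505 CPM (log2 difference 1.59 ± 0.36, adjusted p = 0.000676). ALOX5 (0.39 ± 0.13) and PPARD (0.18 ± 0.07) were called higher by small amounts, and without treated knockout replicate 2 neither passed, which left 2 higher genes in the list. PPARD also lost its call without treated wild type replicate 1 or 3 or treated knockout replicate 1.

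The enzymes, receptors and cofactors of the vitamin D system were called both ways, 7 lower and 4 higher of 14 tested (20 listed), with a median of -0.25. RXRA, the main partner of the receptor, was at 207, 198 and 173 CPM against 107, 92.7 and 81.1 CPM, 2.06-fold lower (-1.04 ± 0.11, adjusted p = 1.26e-07), and RXRB was lower by less (-0.69 ± 0.12, but -0.15 and not called with the offsets). CYP27B1, the enzyme that makes the hormone, was at 10.2, 7.02 and 9.39 CPM against 3.77, 3.69 and 5.39 CPM (-1.05 ± 0.17, adjusted p = 2.76e-05), a call lost with the offsets for GC content and span (-0.36). HR, a corepressor of the receptor in skin (-1.32 ± 0.10), the chaperone PDIA3 (-1.36 ± 0.11) and the sterol enzyme DHCR7 (-0.55 ± 0.12, but -0.12 and not called with the offsets) were lower. The coactivator genes MED1 (1.35 ± 0.14), NCOA3 (0.82 ± 0.10) and SNW1 (0.36 ± 0.08, but 0.13 and not called with the offsets) were higher. NCOA1 (0.03 ± 0.11), NCOA2 (0.11 ± 0.09) and the corepressor NCOR1 (-0.16 ± 0.08) did not pass. With the offsets all 3 were called lower, at -0.39, -0.22 and -0.41. NCOA2 was instead called higher with library size as the scaling (0.21) and in limma (0.21). NCOR1 was also called lower with median-ratio scaling (-0.18), in DESeq2 (-0.18) and with the 6 treated libraries alone (-0.17).

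Keratins of activated, wounded or simple epithelia were lower in the knockout. Of 11 tested (15 listed), 9 were lower and 0 higher in edgeR, with a median of -1.83, or -1.10 with the offsets for GC content and span, under which 2 were higher. KRT17, a keratin of wounded and hyperproliferative epidermis, was at 595, 419 and 555 CPM in the wild type and 46.6, 42.1 and 40.7 CPM in the knockout, 12.1-fold lower (log2 difference -3.60 ± 0.18, adjusted p = 1.99e-09). KRT6A, its companion in wounded epidermis, was at 188, 165 and 172 CPM against 26.7, 26.5 and 26.7 CPM (-2.72 ± 0.10, adjusted p = 1.75e-12). The simple epithelial keratins KRT7 (-1.06 ± 0.08) and KRT19 (-1.02 ± 0.09) were 2.08-fold and 2.02-fold lower. KRT18 (-0.19 ± 0.15, adjusted p = 0.26) and KRT80 (-0.18 ± 0.09, adjusted p = 0.0647), named because they were the 2 exceptions, did not pass. KRT14 and KRT5, the pair of keratins of the basal layer, were lower as well, KRT14 at 295, 254 and 299 CPM against 57.2, 61.1 and 57.3 CPM (-2.27 ± 0.11) and KRT5 at 55.5, 52.5 and 45.4 CPM against 14.6, 19.3 and 17.0 CPM (-1.59 ± 0.12).

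Terminal differentiation genes were called both ways. Of 18 tested (33 listed), 11 were lower and 7 higher, with a median of -0.93, or -0.34 with the offsets. The lower members named here encode structural proteins of the cornified envelope. SPRR2D, a small proline-rich envelope protein, had 204 counts in the wild type against 2 in the knockout (ratio 92.9, 95% exact interval 25.4 to 772), and SPRR1B was at 8.91, 8.90 and 9.91 CPM against 1.43, 1.89 and 0.9504 CPM (-2.69 ± 0.31, adjusted p = 1.43e-06). The envelope plakin genes PPL (-1.19 ± 0.07) and EVPL (-0.85 ± 0.07) were lower too, although EVPL stood at 0.15 with the offsets. The higher members named here encode transcription factors of the differentiation programme. GRHL3 was at 2.21, 2.26 and 2.40 CPM against 20.9, 22.6 and 20.4 CPM, 9.25-fold higher (log2 difference 3.21 ± 0.14, adjusted p = 7.31e-12). EHF was at 36.8, 40.6 and 38.0 CPM against 197, 226 and 181 CPM (2.39 ± 0.09, adjusted p = 2.83e-12). PRDM1 (2.53 ± 0.18) and ELF3 (2.35 ± 0.15) were higher by similar amounts. The transcription factor gene KLF4 (-1.01 ± 0.13) and the filaggrin gene FLG (2.44 ± 0.19), named after their values were seen, went the other way for their kind.

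Basal cell anchorage genes were mostly lower. All 23 listed basal cell and hemidesmosome genes were tested, of which 18 (78.3%) were lower and 2 higher, with a median of -0.80 (-0.84 with the offsets). PLEC, the plakin that ties keratin filaments to the hemidesmosome, was at 893, 824 and 932 CPM against 135, 127 and 132 CPM, 6.71-fold lower (log2 difference -2.75 ± 0.11, adjusted p = 4.25e-12). LAMB3, a chain of the anchoring laminin 332, was at 473, 468 and 445 CPM against 146, 153 and 134 CPM (-1.68 ± 0.07). The integrin chain ITGB4, which spans the membrane at the hemidesmosome, was 3.93-fold lower (-1.97 ± 0.09, adjusted p = 8.00e-12). LAMA3, another chain of this laminin, named after its value was seen, was lower by less (-0.31 ± 0.08). The collagen IV chains COL4A5 (0.61 ± 0.10) and COL4A6 (0.38 ± 0.15) were the 2 higher genes. COL4A6 was not called without treated wild type replicate 3 or treated knockout replicate 2, or in DESeq2 (0.37). TP63, the master factor of stratified epithelia, was among the 3 not called (-0.15 ± 0.11, adjusted p = 0.214).

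Junction genes were called both ways. All 27 listed desmosome, gap and tight junction genes were tested, and 15 were lower and 7 higher (median -0.54). GJB6, the gap junction protein connexin 30, had 171 counts in the wild type libraries and 0 in the knockout libraries. Taking 3 counts over the group as the floor, it was at least 51.9-fold lower (adjusted p = 5.77e-08). DSP, the plakin of desmosomes, was at 172, 128 and 179 CPM against 17.8, 18.2 and 15.1 CPM, 9.35-fold lower (-3.23 ± 0.19, adjusted p = 2.66e-08), and the plaque protein gene PKP3 was 3.29-fold lower (-1.72 ± 0.09). The cadherin gene CDH3, an adherens junction protein of basal cells, was lower (-1.40 ± 0.09). CTNND1, which stabilises cadherins at the membrane, was at 339, 338 and 361 CPM against 776, 824 and 684 CPM (1.14 ± 0.10, adjusted p = 1.27e-08). The tight junction gene OCLN (0.92 ± 0.08), the desmosomal cadherin DSG3 (0.65 ± 0.09) and the plaque gene PKP2 (0.51 ± 0.07) were higher, so that members of 1 structure were found on both sides. Of 13 tested epithelial to mesenchymal markers (19 listed), 6 (46.2%) were lower and 5 (38.5%) higher (median 0.03), beside 37.4% and 38.4% over all genes tested. The lower ones held both the epithelial genes EPCAM (-0.92 ± 0.11) and ESRP2 (-1.73 ± 0.09) and the mesenchymal matrix genes FN1 (-1.25 ± 0.11) and TNC (-0.81 ± 0.10).

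Secreted proteases of matrix and fibrin were mostly lower. Of 21 tested genes of matrix metalloproteases and the plasminogen system (24 listed), 16 (76.2%) were lower and 3 higher, with a median of -0.96. PLAU, the activator urokinase, was 2.20-fold lower (-1.14 ± 0.08), whereas PLAT, the tissue-type activator, was 2.03-fold higher (1.02 ± 0.12, adjusted p = 7.03e-07). The pair of activators thus stood on opposite sides. The collagenase MMP1 was at 11.5, 11.9 and 10.5 CPM against 1.21, 0.903 and 2.30 CPM (-2.93 ± 0.25), and the gelatinase MMP2 at 32.1, 34.2 and 32.3 CPM against 7.46, 8.87 and 10.4 CPM (-1.88 ± 0.14). ADAM10 (0.20 ± 0.08) and ADAM17 (0.22 ± 0.08), the shedding proteases, were called higher but not without treated wild type replicate 1 or treated knockout replicate 1 (ADAM10 also not without replicate 2 of either group), which left 1 higher gene, and they stood at -0.29 and -0.21 with the offsets.

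Of 16 tested kallikrein and epidermal serpin genes (22 listed), 9 were lower and 4 higher (median -0.64). The desquamation protease KLK5 was 2.57-fold lower (-1.36 ± 0.10), as were the membrane-bound inhibitors of serine proteases SPINT1 (-1.77 ± 0.11) and SPINT2 (-1.47 ± 0.12). SPINK5, which inhibits KLK5 in the upper epidermis, was at 2.60, 2.81 and 1.43 CPM against 12.1, 15.6 and 12.4 CPM (2.55 ± 0.24, adjusted p = 1.06e-07), and SERPINB5, called maspin, was 1.93-fold higher (0.95 ± 0.07). A protease was thus lower while its inhibitor was higher. Of 13 tested antimicrobial and S100 genes (20 listed), 9 were lower and 2 higher (median -0.78). The calcium-binding S100A2, abundant in basal keratinocytes, was at 927, 910 and 1035 CPM against 244, 233 and 260 CPM (-1.96 ± 0.13), and the antiprotease SLPI was 5.00-fold lower (-2.32 ± 0.20). PI3, the elastase inhibitor elafin (1.33 ± 0.22), and S100A8, a subunit of calprotectin (0.88 ± 0.25), were the higher ones.

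Inflammatory genes were higher in the knockout. Of 21 tested cytokine, chemokine and NF-kB feedback genes (30 listed), 16 (76.2%) were higher and 3 lower, with a median of 1.09. IL18, a cytokine that epidermal cells store as a precursor, was at 58.5, 56.6 and 58.1 CPM in the wild type and 245, 270 and 228 CPM in the knockout, 4.29-fold higher (log2 difference 2.10 ± 0.07, adjusted p = 1.43e-12). CCL2, which attracts monocytes, was at 24.4, 37.1 and 24.0 CPM against 142, 144 and 140.0 CPM (2.32 ± 0.13, adjusted p = 2.88e-10). BIRC3, an NF-kB target that protects from cell death (1.75 ± 0.08), and NFKBIA, the inhibitor that NF-kB induces (1.20 ± 0.07), were 3.36-fold and 2.29-fold higher. IL1A (2.94 ± 0.20), the chemokine gene IL8, now CXCL8 (3.03 ± 0.19), and TNF (2.12 ± 0.22), named after their values were seen, had larger or similar differences at lower levels, with means of 43.2, 39.8 and 7.50 CPM in the knockout. The 3 lower genes were RELB, a subunit of the noncanonical pathway (-0.81 ± 0.10, but 0.18 with the offsets), TNFAIP3, which ends NF-kB signals (-0.72 ± 0.07), and IL1RN, the antagonist of the interleukin 1 receptor (-0.27 ± 0.11). IL1RN was not called without treated wild type replicate 1 or 2 or treated knockout replicate 1 or 3. Its call was also lost with library size as the scaling (-0.16) and in limma (-0.15).

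Of 35 tested type I interferon response genes (36 listed), 14 (40.0%) were higher and 15 (42.9%) lower, with a median of 0.01. These shares were near those over all genes tested (38.4% and 37.4%). The cytosolic RNA sensor DDX58, now RIGI, was at 57.9, 62.2 and 59.1 CPM against 199.8, 197 and 189 CPM (1.71 ± 0.12, adjusted p = 3.04e-09). OASL (1.41 ± 0.07), IFIT3 (1.34 ± 0.08) and IFIT1 (1.31 ± 0.09), which bind or sense viral RNA, were likewise higher. The transcription factors of the same response, IRF7 at 85.0, 79.9 and 92.4 CPM against 26.4, 26.6 and 26.3 CPM (-1.70 ± 0.08) and IRF9 (-1.53 ± 0.10), were lower, together with the ubiquitin-like modifier ISG15 (-1.36 ± 0.11) and the GTPase MX1 (-1.29 ± 0.09). All 21 listed genes of MHC class I antigen presentation were tested, with 12 lower and 5 higher and a median of -0.70, or -0.12 with the offsets. PSME1 (-0.96 ± 0.11), a proteasome activator, CANX (-0.94 ± 0.09), a chaperone of nascent class I molecules, and TAPBP (-0.83 ± 0.08, but -0.07 and not called with the offsets), which bridges class I molecules and the peptide transporter, were lower. ERAP2, which trims peptides, was 3.29-fold higher (1.72 ± 0.15, adjusted p = 1.74e-08).

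Genes of the EGF receptor pathway and the immediate early response were mostly lower, 18 of 26 tested (33 listed), with 5 higher and a median of -0.73. EGFR itself was at 1311, 1210 and 1318 CPM against 600.1, 622 and 524 CPM, 2.20-fold lower (log2 difference -1.14 ± 0.08, adjusted p = 1.53e-09). FOSL1, an AP-1 subunit, was at 255, 259 and 249 CPM against 47.8, 55.1 and 58.1 CPM (-2.25 ± 0.11), and the MAP kinase phosphatases DUSP5 (-2.86 ± 0.18) and DUSP4 (-1.63 ± 0.10), which the pathway induces, were lower as well. The receptor and these readouts thus shared 1 direction. The ligand HBEGF was at 14.9, 17.0 and 10.1 CPM against 26.1, 28.3 and 25.0 CPM (0.92 ± 0.15, adjusted p = 3.02e-05), and the early gene IER3 was higher (0.74 ± 0.10). EREG (1.23 ± 0.42) and ATF3 (0.76 ± 0.24) were not called without treated wild type replicate 1 or treated knockout replicate 1, when 3 genes of the list were higher, and EREG also not without treated wild type replicate 3 or with the offsets (0.73).

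Of 26 tested TGF-beta and BMP genes (31 listed), 11 (42.3%) were higher and 10 (38.5%) lower. These shares were near those over all genes tested (38.4% and 37.4%). The median of the list, 0.15, became -0.21 with the offsets. The ligand gene TGFB1 was at 96.4, 95.4 and 96.0 CPM against 26.6, 26.1 and 26.0 CPM, 3.66-fold lower (-1.87 ± 0.10, adjusted p = 9.27e-11), while TGFB2 was at 57.6, 66.4 and 58.4 CPM against 117, 141 and 134 CPM, 2.15-fold higher (1.10 ± 0.09, adjusted p = 1.08e-08). One ligand was thus lower and another higher. FST, follistatin, which binds activin, was at 367, 422 and 364 CPM against 42.9, 44.0 and 51.6 CPM (-3.06 ± 0.14), and the receptor gene ACVR1 was lower (-1.12 ± 0.09). The BMP targets ID1 (1.09 ± 0.08), SMAD6 (1.11 ± 0.08) and ID2 (0.88 ± 0.13) were higher. All 18 listed YAP and TEAD genes were tested, with 8 (44.4%) lower and 7 (38.9%) higher (median -0.05), beside 37.4% and 38.4% over all genes tested. The matricellular gene CYR61, now CCN1 (-1.12 ± 0.13), and the tissue factor gene F3 (-1.11 ± 0.08) were lower, and ANKRD1 (2.26 ± 0.22) and the transcription factor gene TEAD1 (1.05 ± 0.07) higher.

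Of 26 tested Wnt genes (37 listed), 14 were lower and 6 higher (median -0.46). The ligand WNT7A was at 119, 102 and 117 CPM against 30.4, 29.2 and 26.6 CPM (-1.97 ± 0.09, adjusted p = 9.71e-12), and the secreted inhibitor DKK1 at 198, 217 and 202 CPM against 51.2, 57.1 and 59.3 CPM (-1.88 ± 0.09). TCF7L2, the transcription factor at the end of the pathway (1.57 ± 0.10), and RNF43, which removes its receptors (1.85 ± 0.16), were higher. Of 18 tested Notch genes (23 listed), 11 were lower and 4 higher, with a median of -0.86, or -0.32 with the offsets. MFNG, which adds sugars to Notch receptors (-3.85 ± 0.40), the target gene HES5 (-3.81 ± 0.38) and the ligands DLL1 (-1.58 ± 0.11) and JAG2 (-1.51 ± 0.14) were lower. The coactivator MAML2 was at 54.1, 55.0 and 50.9 CPM against 153, 175 and 147 CPM (1.57 ± 0.08), and the target gene HES1 was higher (0.71 ± 0.11), so that 2 targets of the pathway stood on opposite sides. RBPJ, its DNA-binding factor, was called higher (0.46 ± 0.09) but stood at -0.11 with the offsets. Of 6 tested hedgehog genes (14 listed), 2 were higher and 1 lower (median 0.12), with the effector GLI1 3.29-fold higher (1.72 ± 0.22), GAS1 lower (-2.54 ± 0.56) and SUFU (0.27 ± 0.11) not called without treated knockout replicate 2 or without any 1 treated wild type library. Among 21 tested semaphorins and receptors (26 listed), 14 were lower and 4 higher (median -0.84). The plexin receptors PLXNB1 (-1.84 ± 0.11) and PLXNB2 (-1.83 ± 0.11) and the membrane-anchored SEMA7A (-2.02 ± 0.12) were lower, and the secreted SEMA3A (1.21 ± 0.13) and SEMA3C (1.04 ± 0.10) higher.

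Mitotic genes were higher in the knockout. All 32 listed G2/M genes were tested, and 27 (84.4%) were higher and 1 lower, 17 of the higher ones at least 2-fold against 13.1% of all genes tested, with a median of 1.03. CDK1, the kinase that starts mitosis, was at 65.4, 62.0 and 67.2 CPM in the wild type and 209, 197 and 226 CPM in the knockout, 3.25-fold higher (log2 difference 1.70 ± 0.09, adjusted p = 3.28e-11). KIF11, a motor of the spindle, was at 90.9, 98.8 and 93.3 CPM against 299, 291 and 274 CPM (1.61 ± 0.09), and CDC25C, which activates CDK1, was 3.63-fold higher (1.86 ± 0.10). CDC25B was the lower one (-0.65 ± 0.08, but -0.13 and not called with the offsets). With the 6 treated libraries fitted alone, 2 genes of this list were lower. All 32 listed S phase genes were tested, with 22 (68.8%) higher and 7 lower, a median of 0.43, and smaller differences. The replication licensing gene CDC6 was at 146, 133 and 141 CPM against 295, 287 and 297 CPM (1.07 ± 0.08), while MCM7, a subunit of the replicative helicase, was lower (-0.78 ± 0.07). CDT1, its loader, was called lower (-0.83 ± 0.10) but stood at 0.25 with the offsets.

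Of 14 tested cell cycle brakes and drivers (15 listed), 5 were lower and 4 higher (median -0.04, or 0.12 with the offsets). CCND1, cyclin D1, was at 278, 287 and 271 CPM against 102, 105 and 104 CPM, 2.69-fold lower (-1.43 ± 0.10, adjusted p = 1.39e-09), and CCND2 was lower (-0.86 ± 0.09). CDKN1A, the inhibitor p21, was 1.56-fold lower (-0.64 ± 0.10), a call lost with the offsets (-0.07), and CDKN2C, the inhibitor p18, was higher (1.54 ± 0.23). The driver CCND1 and the brake CDKN1A were thus both called lower, CDKN1A only without the offsets. Targets of p53, with 21 listed and tested, were called both ways, 10 higher and 8 lower (median 0.29). Among them SFN, an epidermal 14-3-3 protein, was at 588, 594 and 591 CPM against 151, 132 and 162 CPM (-1.99 ± 0.17). The death receptor gene FAS was 2.83-fold higher (1.50 ± 0.13).

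Retinoid genes were called both ways, and RARB was among the 15 largest rises. Of 14 tested (23 listed), 7 were higher and 5 lower (median 0.32). RARB, a retinoic acid receptor and itself a target of retinoic acid, was at 0.0788, 0 and 0.225 CPM against 4.82, 6.16 and 5.07 CPM (log2 difference 5.57 ± 0.45, adjusted p = 7.36e-09). STRA6, a receptor for retinol uptake, was at 3.23, 4.06 and 2.85 CPM against 26.3, 26.1 and 24.8 CPM (2.93 ± 0.14, adjusted p = 2.85e-11), and ALDH1A2, which makes retinoic acid, and the retinal reductase DHRS3 were higher (2.01 ± 0.19 and 1.71 ± 0.09). ALDH1A3, the abundant enzyme of retinoic acid synthesis, was at 1688, 1868 and 1691 CPM against 777, 779.9 and 804 CPM, 2.22-fold lower (-1.15 ± 0.07), and the receptor RARA (-1.11 ± 0.08) and CYP26B1, which degrades retinoic acid (-1.37 ± 0.14), were lower. CYP26A1, which also degrades it and is named after its value was seen, was higher at low levels. Its means were 0.128 CPM in the wild type and 1.79 CPM in the knockout (3.70 ± 0.46, adjusted p = 1.31e-06). Enzymes that make retinoic acid, enzymes that degrade it and its receptors thus each had members on both sides.

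Chaperones of the endoplasmic reticulum were lower, 14 (70%) of the 20 listed and tested, with 1 higher and a median of -0.82. HYOU1 was at 203, 212 and 226 CPM against 69.2, 73.0 and 81.5 CPM (-1.52 ± 0.10, adjusted p = 1.28e-09), and PDIA4 (-1.34 ± 0.09), CRELD2 (-1.58 ± 0.11) and PDIA6 (-0.79 ± 0.07) were lower. DNAJC3 was the higher one (0.59 ± 0.07, but 0.12 and not called with the offsets), beside 4 higher genes with library size as the scaling and 2 without treated knockout replicate 2. Of 19 tested ATF4 genes of amino acid stress (20 listed), 13 were lower and 5 higher (median -0.94). The asparagine synthetase gene ASNS was at 38.7, 35.4 and 36.6 CPM against 11.6, 13.9 and 14.8 CPM (-1.46 ± 0.11), and the stress gene DDIT4 was lower (-1.22 ± 0.10). SLC7A11, the cystine importer, which is also a target of NRF2, was at 35.7, 38.4 and 39.1 CPM against 138, 172 and 144 CPM (2.00 ± 0.15, adjusted p = 3.22e-08). Of 23 tested NRF2 genes (25 listed), 13 were higher and 7 lower (median 0.24), with the thioredoxin reductase TXNRD1 2.72-fold higher (1.44 ± 0.09) and malic enzyme ME1 2.70-fold higher (1.43 ± 0.10), and ferritin FTH1 lower (-0.95 ± 0.10). KEAP1, which holds NRF2 in check, was called lower (-0.47 ± 0.08) but stood at 0.31 with the offsets.

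Lipid and sugar metabolism were called both ways. Of the 32 listed and tested genes of cholesterol and fatty acid synthesis, 15 were lower and 10 higher (median -0.14). FASN, the fatty acid synthase, was lower, at 194, 191 and 202 CPM against 47.8, 50.2 and 48.8 CPM (-2.00 ± 0.13, adjusted p = 3.81e-09) and the desaturase SCD was 3.28-fold lower (-1.71 ± 0.12). Of sterol synthesis, HSD17B7 (1.52 ± 0.18), SC5D (0.78 ± 0.09) and FDPS (0.66 ± 0.08) were higher, while SQLE (-0.90 ± 0.11), EBP (-1.11 ± 0.12) and TM7SF2 (-1.03 ± 0.12), named after their values were seen, were lower. Of 26 tested glycolysis and hypoxia genes (29 listed), 13 were lower and 6 higher, with a median of -0.31, or 0.04 with the offsets. The growth factor VEGFA was at 463, 550.1 and 530 CPM against 117, 108 and 117 CPM, 4.51-fold lower (-2.17 ± 0.09, adjusted p = 5.03e-12), and the hexokinase HK2 was lower (-1.05 ± 0.11). EGLN3, an oxygen sensor induced by hypoxia, was 2.20-fold higher (1.14 ± 0.10). Of 5 tested metallothionein and zinc genes (12 listed), 3 were lower and 1 higher (median -0.32), with the zinc exporter SLC30A1 4.09-fold lower (-2.03 ± 0.17) and the metal-sensing factor MTF1 1.73-fold higher (0.79 ± 0.10).

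By gene type, long noncoding RNA (lncRNA) genes leaned to the knockout. Of 1491 lncRNA genes tested, 755 (50.6%) were higher and 299 (20.1%) lower, 423 and 125 of them at least 2-fold, with a median of 0.43. Among 11754 protein-coding genes 4363 (37.1%) were higher and 4761 (40.5%) lower, with a median of -0.03. LncRNA genes made up 8.06 to 8.24% of counts in the knockout libraries and 7.36 to 7.94% in the wild type libraries. Whether counting used the strand is not stated in the labels or headers, so reads of an lncRNA gene and of a gene that overlaps it cannot be told apart.

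Among lower lncRNA genes of at least 1 CPM, RP13-631K18.5, now LINC02989, was at 13.2, 14.4 and 11.6 CPM against 1.43, 1.56 and 1.58 CPM, 8.52-fold lower (log2 difference -3.09 ± 0.16, adjusted p = 4.75e-11). CTC-523E23.11, now LINC03049, was at 2.52, 3.12 and 3.00 CPM against 0.151, 0.246 and 0.317 CPM (-3.56 ± 0.36, adjusted p = 2.87e-07), and it was at 0 CPM in untreated wild type cells. CTD-2325P2.3 had 50 counts against 1 (ratio 45.5, 95% exact interval 7.81 to 1830). RP1-63G5.5, typed as lncRNA by GENCODE v29 although its ID now carries the symbol ELFN2, was lower (-2.39 ± 0.21). The gene whose ID now carries the symbol FZD10-AS1 was lower too (-2.41 ± 0.41). So was its partner, the Wnt receptor gene FZD10, named after its value was seen (-3.05 ± 0.39). On the higher side, RP11-275N1.1, now LINC02643, was at 0.394, 0.858 and 0.676 CPM against 18.4, 19.4 and 15.4 CPM, 27.1-fold higher (4.76 ± 0.26, adjusted p = 8.80e-11). RP11-180O5.2, now HHLA3-AS1, had 140 counts in the knockout against 1 (ratio 154, 27.1 to 6110), RP11-91K9.1, now LINC02015, 95 against 1 (ratio 104, 18.3 to 4160), and RP5-1043L13.1, now MIR646HG, 43 against 1 (ratio 47.2, 8.03 to 1910). TM4SF1-AS1 had 39 counts against 0 and was at least 14.3-fold higher at the floor of 3 counts. Several lncRNA genes thus went from near absence in one genotype to clear counts in the other.

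Of 35 tested regulatory lncRNAs (42 listed), 21 were higher and 8 lower (median 0.44). NEAT1, the scaffold of nuclear paraspeckles, was at 7274, 7400.0 and 8143 CPM against 3212, 3420.0 and 2878 CPM, 2.40-fold lower (-1.26 ± 0.12, adjusted p = 6.73e-08). SNHG7, a host gene of small nucleolar RNAs, was 2.25-fold lower (-1.17 ± 0.10). JPX, a regulator of X inactivation (1.61 ± 0.12), DLEU2, which hosts microRNAs of the miR-15 and miR-16 family (1.43 ± 0.09), and OIP5-AS1 (1.19 ± 0.09) were higher. MIR31HG, the host of miR-31, was called lower (-0.51 ± 0.08) but not with the offsets (-0.14).

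Base composition moved with the difference. In the fifth of genes with the lowest transcript GC content (28.6 to 42.1%), 65.1% were higher and 11.2% lower, with a median log2 difference of 0.48. In the fifth with the highest (58.2 to 86.4%), 9.6% were higher and 73.9% lower, with a median of -0.79. Spearman's rank correlation across genes was -0.50 for GC content and 0.21 for gene span, as a description over 14135 genes that share the same 6 libraries. The mean transcript GC content weighted by counts was 50.24 to 50.36% in the treated wild type libraries and 47.80 to 47.96% in the treated knockout libraries. In untreated cells it was 49.20 to 50.24% and 48.05 to 48.41%. Chromosomes differed too, with 57.2% of genes lower on chromosome 22 and 55.1% on chromosome 19, and 53.4% higher on chromosome 4, while with the offsets the medians of these chromosomes were 0.01, 0.06 and 0.03. With these offsets 5065 genes were higher and 5126 lower, and the list medians were -0.84 for basal cell genes, -0.82 for matrix proteases, 0.88 for G2/M genes and 1.19 for cytokine genes. The part of base composition in single results was not tested beyond these values.

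**Figure D5:**
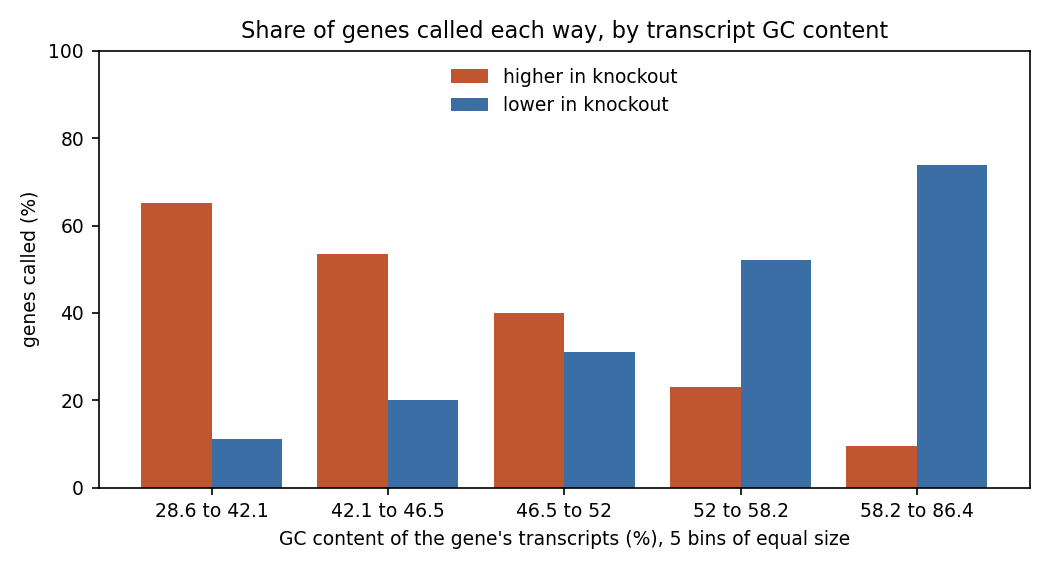
Share of genes called higher or lower in the treated knockout (vertical axis, percent) in 5 bins of equal size of transcript GC content (horizontal axis, percent). The share of higher genes falls from 65.1% to 9.6% from the lowest to the highest bin, and that of lower genes climbs from 11.2% to 73.9%.

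Markers of other cell types were few and low. Of the listed fibroblast markers 3 of 9 were in the table, with a summed level of 3.91 to 13.1 CPM in the wild type and 1.96 to 6.42 CPM in the knockout, and LUM was lower (-3.50 ± 0.52). Melanocyte markers numbered 2 of 7, at 6.68 to 9.36 CPM against 19.5 to 21.5 CPM, through the transcription factor gene MITF (1.43 ± 0.13). The endothelial marker CDH5 (1 of 6 in the table) was at 7.58 to 8.19 CPM against 3.77 to 4.12 CPM, and the immune marker CD68 (1 of 10) at 13.5 to 15.1 CPM against 3.56 to 4.27 CPM. Their part in the results was not tested. Of the keratinocyte markers 8 of 10 were lower and 1, DSG3, was higher.

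The authors' deposited enrichment tables for this comparison list gene ontology terms of genes lower and of genes higher in the knockout. All 2829 matched genes of the first and all 1380 of the other had the same direction here. The authors' deposited table of lower genes held 148 terms, 91 with an adjusted p below 0.05. It named cornification (41 of 4413 listed genes against 52 of 10964 background genes, the authors' adjusted p = 7.49e-05) and extracellular matrix disassembly (39 of 4413 against 50 of 10964, 8.67e-05). It also named endoplasmic reticulum lumen (109 of 4616 against 167 of 11440, 1.98e-08) and focal adhesion (192 of 4616 against 341 of 11440, 1.27e-07). The authors' deposited table of higher genes held 59 terms, 46 below 0.05. It named chromosome segregation (165 of 3915 listed genes against 307 of 10964 background genes, the authors' adjusted p = 2.37e-07), nucleosome assembly (56 of 3915 against 91 of 10964, 0.000123) and chemokine activity (10 of 3945 against 11 of 11060, 0.0381). These terms touch several of the gene groups described above, from the same libraries, and are not independent of them.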

How the data were processed

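The authors deposited raw counts for 16271 genes, named by human Ensembl IDs and symbols, and CPM that equal each count over its library's total to within 0.005. Their deposited enrichment tables hold p-values and, as other values, the number of listed genes per term, per the file headers. The submitters' processing notes name BWA 0.5.9 and the mouse build mm9, whereas the IDs are human, so the build is unsettled, and no source used here gives the annotation or the counting tool. Positions and gene types come from GENCODE v29 (GRCh38), where 15524 IDs were found.

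The count test was edgeR 4.0.16 (R 4.3.3): TMM scaling (factors 0.959 to 1.04 in the treated libraries), filterByExpr (14676 genes kept, 1595 dropped), then a robust quasi-likelihood fit over all 12 libraries in 4 groups (common dispersion 0.0117), with Benjamini-Hochberg adjustment. SE is the size of the log2 difference divided by the square root of F. Depth limits genes of few counts, whose fitted difference depends on the prior count. Intervals are Clopper-Pearson and, like floors, cover counting error only. Of the genes tested, 808 share all counts with another ID.

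Genes named are VDR, CYP24A1, MMP10 and THBD, the 15 protein-coding genes (at least 5 CPM) and 5 lncRNA genes (at least 1 CPM) with the largest differences each way among called genes without overlap or shared counts, up to 4 called members each way per list by adjusted p, and the vitamin D enzymes, receptor and cofactors. Some genes that met the rule are not reported here, although the counts and medians of lists include them. Members and the 37 lists were chosen with earlier results of these data known. The lists of keratinocyte identity, fibroblast, melanocyte, endothelial and immune markers serve as a check. Alternatives were other scalings, filters and thresholds, DESeq2 1.42.0, limma 3.58.1 on log2(CPM + 1), the treated libraries alone, a replicate block and each library left out. Offsets that remove a trend of log2 CPM with transcript GC content and gene span were added after seeing the data. Promoter windows are from RefSeq (GRCh38.p14).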

Additional observations from a re-analysis of the deposited data

How the results depend on the processing

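Over 14676 genes the calls were 5640 higher and 5493 lower. Settings other than a minimum fold kept both within 1.5 times, between 4999 and 6399 higher and between 4864 and 5711 lower, and leaving out each treated library in turn gave 5245 to 5422 higher and 5197 to 5391 lower. A minimum of 2-fold left 1922 and 2034, and for lncRNA genes 423 and 125 in place of 755 and 299. DESeq2 called 5455 and 5475. The difference of VDR ranged from 0.17 to 0.26 with a library left out, and was not called at 0.17 without treated wild type replicate 3. It was larger, and called, with library size as the scaling (0.33), in limma (0.33) and with the offsets for GC content and span (0.50). CYP24A1, THBD and MMP10 kept their direction and call in every setting run, with MMP10 from -8.11 without treated knockout replicate 1 to -1.73 in limma.

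With offsets for GC content and span, 11 of the genes named in the text or by the rule changed sign: KEAP1 (0.31), RBL1 (-0.05), NCOA1 (-0.39), RELB (0.18), ADAM10 (-0.29), NCOA2 (-0.22), ADAM17 (-0.21), CDT1 (0.25), EVPL (0.15), RBPJ (-0.11) and SEMA4B (0.08). No other setting changed the sign of a called named gene. The cause was not tested.

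Replicate numbers did not pair the libraries, since deviations of same-numbered treated libraries correlated at -0.096, -0.057 and -0.088. With the replicate number as a block, 5578 genes were higher and 5436 lower, and no named gene changed its call and no called one its sign.

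The limits are 3 wells a group, 1 comparison of cell lines with an unknown number of clones, unknown strand and build, and, for genes of under about 1 CPM, few counts.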
